A study of Ovis aries with 3 samples.

Results

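The cells described here are 1066 keratinocytes carrying at least 3 UMIs (unique molecular identifiers, each marking 1 captured RNA molecule) of LGALS1. They came from a droplet-based single-cell RNA library of Hu sheep rumen epithelium. The library was taken at 42 days of age from milk-fed lambs that also received a concentrate starter. A barcode counted as a kept cell with at least 500 genes and under 20% of its UMIs from 13 mitochondrially encoded genes. It counted as a gated keratinocyte with at least 5 UMIs of KRT15, no UMI of the collagens COL1A1, COL1A2 and COL3A1, of PECAM1, PTPRC or C1QA, and at most 1 UMI of TOP2A and CENPF together. The concentrate library held 9214 barcodes, 4891 kept cells and 3432 gated keratinocytes, so the LGALS1 cells were 31.1% of the gated keratinocytes (95% Clopper-Pearson interval 29.5% to 32.6%). They are set against the 1173 gated keratinocytes of the same library with an LGALS1 count of 0. The whole series comprised 25789 barcodes and 15772 kept cells in 3 libraries, 1 library per diet. The other libraries came from lambs of the same breed and age, on milk only and on milk with alfalfa hay. The number of lambs behind each library was not stated in the labels. With 1 library per diet there was no replicate, so no test was made, and every interval below covers counting error only.

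LGALS1 encodes galectin-1, a small lectin that binds galactose-containing sugar chains on cell surfaces and matrix proteins. It is typically abundant in fibroblasts, endothelial cells and macrophages and low in resting epithelium. The rumen lining is a stratified squamous epithelium, in which keratinocytes divide in the basal layer, switch to spinous and granular programmes as they move up, and end as cornified cells at the lumen. KRT15, the keratin used for the gate, is a basal-layer keratin. The rumen absorbs the short-chain fatty acids made by its microbes, and concentrate feeding raises their supply.

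LGALS1 counts formed a graded range with no gap. In the concentrate library 1173 gated keratinocytes had no LGALS1 UMI, 698 had 1 and 495 had 2. The LGALS1 cells had a median of 4 UMIs, a 90th percentile of 9 and a highest count of 21. Per 10000 UMIs of the cell, the median was 5.00 and the 10th to 90th percentiles ran from 2.71 to 9.24. The 323 cells just inside the limit, at 3 UMIs, had a median depth of 8127 UMIs, and the 495 cells just outside it, at 2 UMIs, had a median depth of 7300 UMIs. The cells were chosen by these raw LGALS1 counts, together with the gate genes, so the counts are a description only.

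Depth moved with the choice. The LGALS1 cells had a median of 9396.5 UMIs and 1610 genes per cell, against 6728 UMIs and 1269 genes in the cells with LGALS1 of 0. Their median mitochondrial share was 10.0%, against 10.9% in the cells with LGALS1 of 0. When each cell was thinned at random to 4000 UMIs, leaving out shallower cells, 1036 LGALS1 cells and 974 cells with LGALS1 of 0 remained, and 2.81% and 17.0% of the groups were left out. After thinning, LGALS1 averaged 0.996 UMIs over the 3054 gated keratinocytes that remained, with a variance of 1.72, whereas counting error alone gives a variance equal to the mean. Of the 1036 thinned LGALS1 cells, 375 (36.2%) still had at least 3 UMIs and 127 (12.3%) had none. Thinning only removes UMIs, so cells could only fall below the limit, and a limit of 3 UMIs is stricter at 4000 UMIs. The loss therefore does not show which cells would change sides at equal depth. Results below are also given at matched depth where that moved them.

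**Figure D1:**
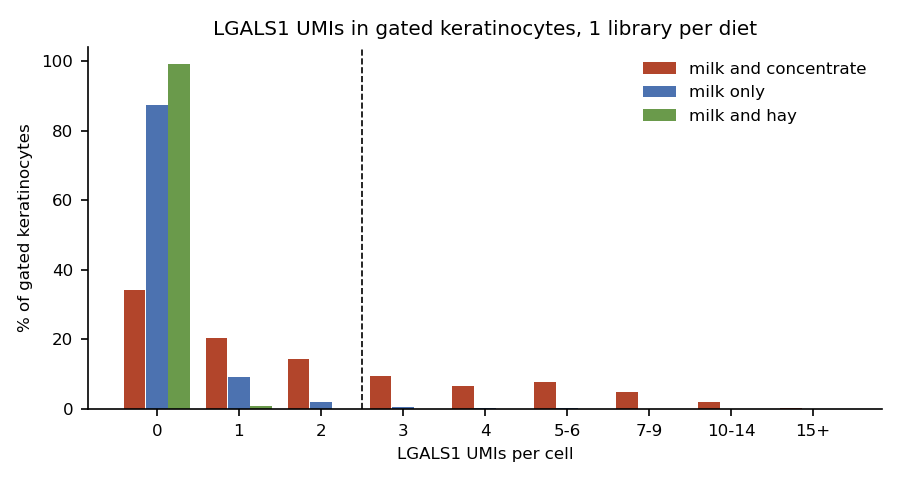
Share of gated keratinocytes (y axis, percent) by the number of LGALS1 UMIs in the cell (x axis), for the 3 libraries; the dashed line is the limit of 3 UMIs. With concentrate the counts run up to 21, with milk only 87.5% of cells have none, and with hay 99.1% have none.

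The same gate found almost no such cells in the other libraries. Milk only gave 27 LGALS1 cells among 2267 gated keratinocytes (1.19%, interval 0.786% to 1.73%). Hay gave 0 among 5270, which allows a share of up to 0.0569%. Any LGALS1 UMI was found in 65.8% of gated keratinocytes with concentrate, 12.5% with milk only and 0.911% with hay, at median depths of 7621, 11703 and 5677 UMIs. Summed over gated keratinocytes, LGALS1 stood at 246.6 CPM (the UMIs of a gene scaled to a common total of UMIs per group) with concentrate, 13.3 CPM with milk only and 1.57 CPM with hay. Diet, animal and library preparation cannot be told apart here.

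Barcodes with stromal or immune genes in the concentrate library carried more LGALS1 than the gated keratinocytes did. A class of 60 kept barcodes rich in collagen RNA, at 36553 CPM, had LGALS1 at 2658 CPM and VIM, a mesenchymal filament protein, at 3351 CPM. This class does not include every barcode with a collagen UMI. The 22 C1QA barcodes, a macrophage gene, had LGALS1 at 2438 CPM, the 33 PTPRC barcodes had 1083 CPM and the 62 PECAM1 barcodes had 525 CPM. At the other end, the 41 gated keratinocytes with at least 5 UMIs of KRT36 had LGALS1 at 59.5 CPM. In those cells 48.8% had an LGALS1 UMI at a median depth of 17799 UMIs. How much of the keratinocyte signal was free RNA from other cells was not tested.

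The LGALS1 cells carried keratinocyte markers, and markers of other types were low. KRT15, which the gate requires, was at 8036 CPM in LGALS1 cells and 9129 CPM in cells with LGALS1 of 0, and made up most of the sum over the 8 keratinocyte markers with a symbol (9092 and 10421 CPM in the same order). Of the markers the gate did not use, the desmosome protein DSP was at 610.2 CPM in LGALS1 cells and 681.7 CPM in cells with LGALS1 of 0, and COL17A1, a hemidesmosome collagen, at 121.8 and 141.5 CPM in the same order. Of 12 fibroblast markers 7 were at 0 in LGALS1 cells, among them the 3 collagens that the gate removed and also LUM, PDGFRA, COL6A3 and MFAP4. The fibroblast list summed to 17.9 CPM in LGALS1 cells and 30.5 CPM in cells with LGALS1 of 0. DCN made up most of both sums, at 15.1 and 28.4 CPM, and its direction depended on how depth was handled. The gap between the sums is thus that of 1 gene. VIM was at 3.12 CPM in LGALS1 cells and 0.909 CPM in cells with LGALS1 of 0. Of 9 endothelial markers 8 were at 0, of 10 macrophage or dendritic markers 6 were at 0, including C1QB, C1QC and CSF1R, and all 8 T or NK markers were at 0. Among these, PECAM1, C1QA and PTPRC were at 0 by the gate. The endothelial list summed to 1.69 CPM in LGALS1 cells and 1.48 CPM in cells with LGALS1 of 0, and the macrophage or dendritic list to 2.58 and 0.795 CPM in the same order. Without the collagen rule, a collagen UMI was found in 22 of 1088 cells with at least 3 LGALS1 UMIs (2.02%) and in 17 of 1190 cells with LGALS1 of 0 (1.43%), whose intervals overlap. Those cells held 879 collagen UMIs (76.4 CPM) with at least 3 LGALS1 UMIs and 17 collagen UMIs (1.90 CPM) with LGALS1 of 0, so the barcodes that the rule removed held more collagen RNA on the LGALS1 side. No barcode of an LGALS1 cell occurred in the milk-only library, and 3 occurred in the hay library, as did 3 of the cells with LGALS1 of 0.

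Across genes the LGALS1 cells were close to the cells with LGALS1 of 0. Genes that reached 10 CPM in either group were taken as measured, and counted as higher or lower when the groups differed at least 1.5-fold. Of 4348 measured genes, 73 were higher in LGALS1 cells (1.68) and 82 were lower (1.89), where the values in parentheses are percentages of the measured genes. The other 4193 genes (96.4%) lay within 1.5-fold, and the median log2 ratio over all genes was 0.05, with 5th and 95th percentiles of -0.36 and 0.40. The counting intervals of all 73 and all 82 genes excluded equality. The 10 CPM and 1.5-fold limits nearly ensure this at these totals of UMIs, so it adds no support. At least a 2-fold difference was seen in 9 genes that were higher and 33 that were lower. Weighting the cells with LGALS1 of 0 to the UMI distribution of the LGALS1 cells, in 6 bins of depth, gave 104 higher and 91 lower genes of 4351. Past 1.5-fold in both comparisons were 56 of the 73 higher genes and 41 of the 82 lower genes, which are 53.8% and 45.1% of the higher and lower genes at matched depth. When the 50 most abundant genes were left out of the totals, 121 genes were higher and 212 lower, so the balance between directions depended on the scaling.

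**Figure D2:**
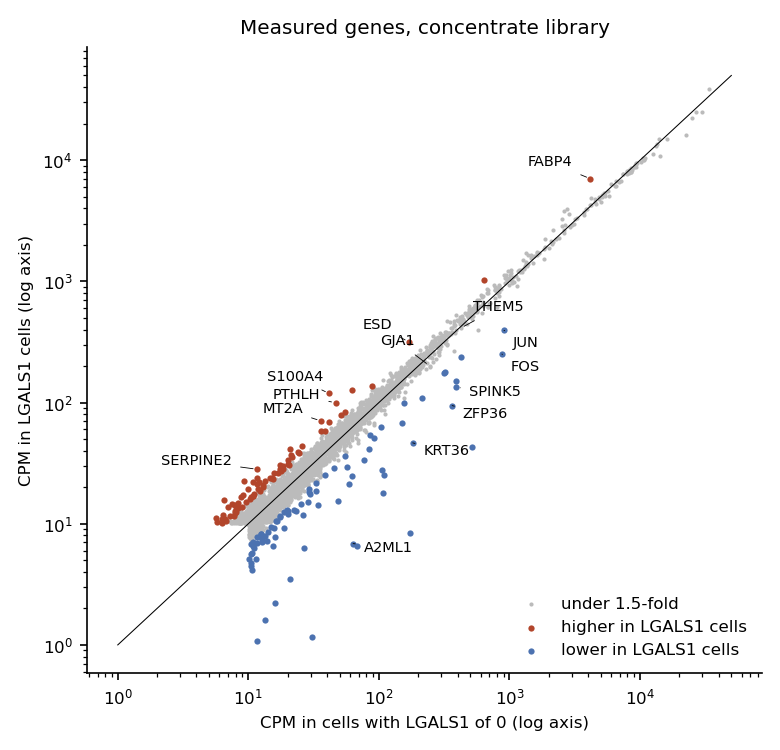
Summed level of each measured gene in LGALS1 cells (y axis, CPM, log scale) against cells with LGALS1 of 0 (x axis, CPM, log scale), with the line of equality; red and blue points differ at least 1.5-fold. The 4193 grey genes follow the line, S100A4 and PTHLH lie above it, FOS, ZFP36 and SPINK5 below it, and THEM5 and GJA1 among the grey points.

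Of the genes proposed as companions of LGALS1, only PTHLH was higher in these cells. PTHLH encodes parathyroid hormone-related protein, a secreted signal that keratinocytes make. It was at 99.5 CPM (exact Poisson interval 93.8 to 105.5) in LGALS1 cells and 46.6 CPM (42.2 to 51.3) in cells with LGALS1 of 0, which is 2.14-fold higher (1.91 to 2.40). After thinning to 4000 UMIs, 24.9% of LGALS1 cells and 13.7% of cells with LGALS1 of 0 had a PTHLH UMI. Barcodes with PECAM1, an endothelial gene, had PTHLH at 8.75 CPM at a median depth of 2630.5 UMIs. Collagen, PTPRC and C1QA barcodes had 13.7, 9.76 and 0 CPM. These classes hold 22 to 62 barcodes, so the values rest on few UMIs.

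THEM5 and GJA1 did not mark the LGALS1 cells. THEM5, a mitochondrial acyl-CoA thioesterase, was at 410.9 CPM in LGALS1 cells and 422.5 CPM in cells with LGALS1 of 0, a ratio of 0.973 (0.931 to 1.02). GJA1, the gap-junction protein connexin 43, was at 200.3 CPM in LGALS1 cells and 245.1 CPM in cells with LGALS1 of 0, a ratio of 0.817 (0.770 to 0.867). Both were found in more LGALS1 cells before thinning, THEM5 in 72.05% against 57.5% and GJA1 in 51.0% against 42.5% of cells with LGALS1 of 0. After thinning the gap narrowed to 56.0% against 51.6% for THEM5 and turned to 36.0% against 38.0% for GJA1. With the comparison cells weighted to matched depth, the log2 ratios were -0.37 for THEM5 and -0.64 for GJA1. Both genes were higher in the concentrate library as a whole than in the other libraries. Over all gated keratinocytes THEM5 was at 415 CPM with concentrate, 126 CPM with milk only and 34.6 CPM with hay, and GJA1 was at 213, 90.8 and 87.9 CPM in the same order. PTHLH was at 74.5 CPM with concentrate, 3.38 CPM with milk only and 16.2 CPM with hay, and the concentrate cells with LGALS1 of 0 were above both other libraries at 46.6 CPM.

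S100A4 had the highest ratio among the genes that were higher in LGALS1 cells at 50 CPM or more. It encodes a calcium-binding S100 protein best known from motile and mesenchymal cells. It was at 118.8 CPM (112.6 to 125.4) in LGALS1 cells and 41.6 CPM (37.4 to 46.0) in cells with LGALS1 of 0, which is 2.86-fold higher (2.55 to 3.22). A UMI of it was found in 27.1% of thinned LGALS1 cells and 11.1% of thinned cells with LGALS1 of 0. S100A4 was also at 1914 CPM in C1QA barcodes, 1073 CPM in PTPRC barcodes and 200.6 CPM in collagen barcodes, so it shares with LGALS1 a high level in non-epithelial cells. The part of free RNA in its difference was not tested.

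The other named genes that were higher at 50 CPM or more were ESD, MT2A, FABP4, PSPH, SRI and GALK1, and 5 further such genes had no symbol. ESD, esterase D, which clears S-formylglutathione, was at 316.7 CPM in LGALS1 cells and 169.4 CPM in cells with LGALS1 of 0, 1.87-fold higher (1.76 to 1.99). MT2A, a metallothionein that binds zinc and copper, was at 70.5 CPM in LGALS1 cells and 36.0 CPM in cells with LGALS1 of 0, 1.96-fold higher (1.72 to 2.24). FABP4, a fatty acid carrier, was the most abundant of the higher genes, at 7023 CPM in LGALS1 cells and 4172 CPM in cells with LGALS1 of 0, 1.68-fold higher (1.66 to 1.70). PSPH, the last enzyme of serine synthesis, was at 136.7 CPM in LGALS1 cells and 88.6 CPM in cells with LGALS1 of 0. SRI, the calcium-binding protein sorcin, was at 79.0 and 51.1 CPM in the same order, and GALK1, which phosphorylates galactose, at 58.2 and 38.5 CPM. These were all 8 genes that met the rule for the highest named genes (PTHLH and S100A4 included). At matched depth FABP4 and SRI were 1.43- and 1.28-fold higher and so under the 1.5-fold limit, while PTHLH, S100A4, MT2A, ESD, PSPH and GALK1 remained past it. Metallothioneins, S100 proteins, keratins and fatty acid carriers have close paralogues whose reads the authors' counting may have split, so their levels are less certain.

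Among genes under 50 CPM that were at least 2-fold higher, those named here were found in 13.6% to 23.8% of the LGALS1 cells. SERPINE2, a secreted protease inhibitor, was at 28.1 CPM in LGALS1 cells and 11.7 CPM in cells with LGALS1 of 0, 2.40-fold higher (1.92 to 3.03). MMP9, a gelatinase, was at 15.8 and 6.47 CPM in the same order, 2.43-fold higher (1.80 to 3.34). The genes that follow were chosen for naming after their values were seen. DAB2, an endocytic adaptor, was at 22.7 CPM in LGALS1 cells and 9.20 CPM in cells with LGALS1 of 0. MYLK, the kinase of myosin light chain, was at 22.3 and 10.8 CPM in the same order, and KRT7, a keratin of simple epithelia, at 23.9 and 11.7 CPM. SPC24, a kinetochore subunit, was at 41.7 CPM in LGALS1 cells and 20.7 CPM in cells with LGALS1 of 0. All of them kept a higher level at matched depth, with log2 ratios of 1.62 for SERPINE2, 1.03 for MMP9, 0.95 for DAB2, 0.60 for MYLK, 1.45 for KRT7 and 1.11 for SPC24. Beside SPC24, 12.7% of LGALS1 cells and 6.48% of cells with LGALS1 of 0 carried the 1 TOP2A or CENPF UMI that the gate allowed, and the 4 cycling markers with a symbol summed to 19.5 and 13.5 CPM in the same order.

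Levels followed the LGALS1 count on both sides of the limit. In cells with 0, 1, 2, 3 to 4, 5 to 9 and at least 10 LGALS1 UMIs, PTHLH stood at 46.6, 61.3, 82.2, 98.4, 97.9 and 111.2 CPM. S100A4 stood at 41.6, 57.1, 79.5, 91.3, 137.9 and 161.2 CPM in those bins, ESD at 169.4, 213.7, 244.1, 277.2, 345.9 and 369.1 CPM, and FABP4 at 4172, 4455, 5524, 6221, 7514 and 8520 CPM. So cells with 1 or 2 LGALS1 UMIs lay between the groups compared here. Median depth was 6728, 6644, 7300, 8553.5, 9964 and 13466 UMIs in the same bins. After thinning to 4000 UMIs the order was kept for PTHLH, at 0.170, 0.255, 0.323, 0.362, 0.384 and 0.459 UMIs per cell, and for S100A4, at 0.153, 0.226, 0.318, 0.373, 0.554 and 0.635 UMIs per cell. THEM5 and GJA1 showed no such order below 10 UMIs and were highest in the 74 cells with at least 10 LGALS1 UMIs, at 558.4 and 302.1 CPM.

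**Figure D3:**
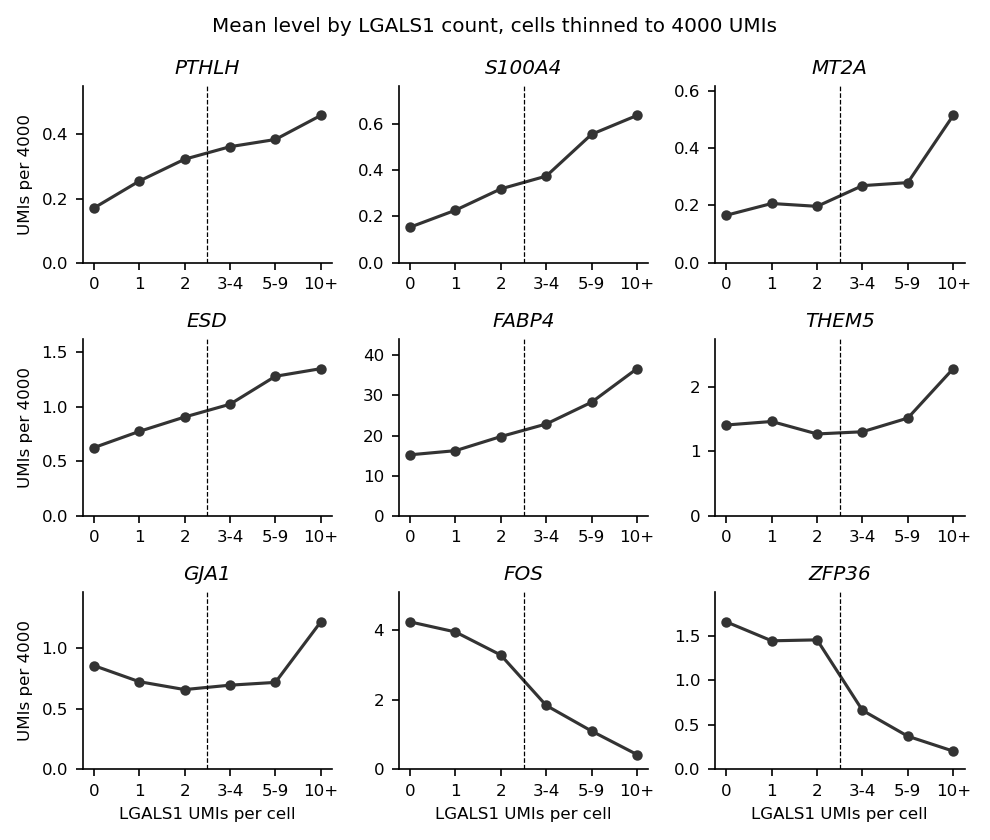
Mean UMIs per cell of 9 genes after thinning each cell to 4000 UMIs (y axis, linear, from 0) by the LGALS1 count of the unthinned cell (x axis); the dashed line is the limit of 3 UMIs, and the points are means over cells of 1 library with no replicate error. PTHLH, S100A4, ESD and FABP4 climb across the bins, and FOS and ZFP36 decline, with the widest step of ZFP36 between 2 and 3 UMIs.

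Within bins of depth, most of the named higher genes stayed higher in most bins. S100A4 was higher in LGALS1 cells in 6 of 6 bins, from 1.55-fold under 4000 UMIs (0.451 to 4.28) to 5.36-fold at 14000 UMIs and over (3.76 to 7.88). PTHLH was higher in 6 of 6 bins, from 1.26-fold to 3.12-fold, although in the bins under 4000 and from 4000 to under 6000 UMIs its interval included equality. ESD and MT2A were higher in 6 of 6 bins, as were PSPH, SRI, GALK1, SERPINE2, MMP9 and KRT7. DAB2 and SPC24 were higher in 5 of 6 bins, MYLK, RRM2 and CLSPN in 4 of 6 and ACOT7 in 3 of 6. FABP4 was higher in 5 of 6 bins and lower under 4000 UMIs, at 1004 CPM in 30 LGALS1 cells and 1720 CPM in 199 cells with LGALS1 of 0. THEM5 was lower in LGALS1 cells in 6 of 6 bins, and GJA1 in 5 of 6.

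**Figure D4:**
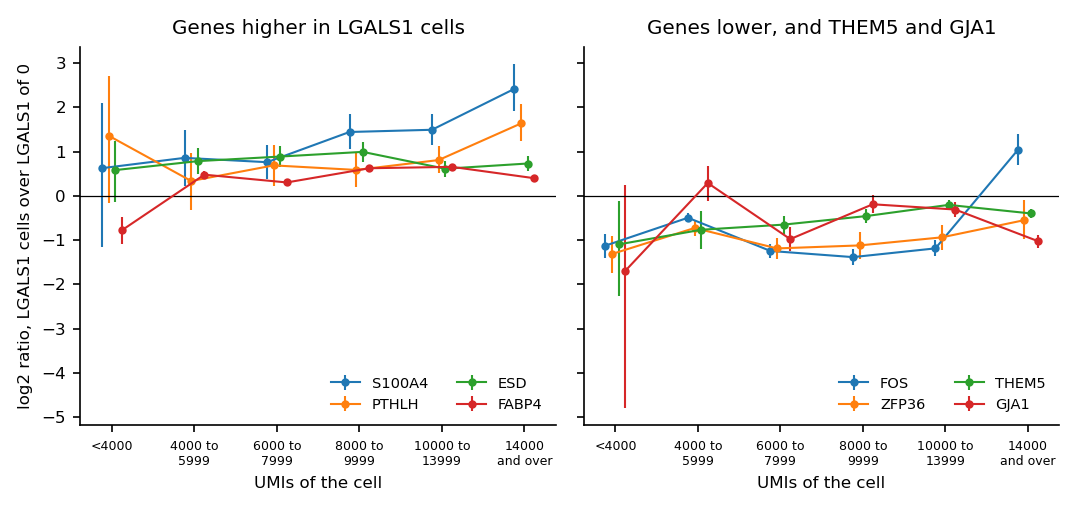
Log2 ratio of LGALS1 cells over cells with LGALS1 of 0 (y axis) within 6 bins of UMIs per cell (x axis), with 95% counting intervals, for genes that were higher (left) and for FOS, ZFP36, THEM5 and GJA1 (right). S100A4, PTHLH and ESD lie above 0 in every bin, FABP4 lies below 0 in the shallowest, and FOS lies above 0 in the deepest.

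Immediate early genes were the largest group that was lower in LGALS1 cells. These genes encode short-lived transcription factors and RNA regulators that cells switch on quickly after a stimulus. Of 13 measured members 9 were lower, where 1.89% of all measured genes were, and 0 were higher, with a median log2 ratio of -1.16. FOS, a subunit of the AP-1 factor, was at 251.1 CPM in LGALS1 cells and 875.1 CPM in cells with LGALS1 of 0, 3.48-fold lower (3.34 to 3.64). JUN, its partner, was at 394.0 and 907.9 CPM in the same order, 2.30-fold lower (2.22 to 2.39). ZFP36, which promotes decay of cytokine mRNAs, was at 94.4 CPM in LGALS1 cells and 363.7 CPM in cells with LGALS1 of 0, 3.85-fold lower (3.59 to 4.14). ATF3, a stress-induced factor, was at 27.8 and 104.8 CPM in the same order. FOSB, BTG2, EGR1, JUNB and KLF4 were also lower, with log2 ratios from -2.08 to -0.82. FOSB and JUNB, at 6.32 and 5.07 CPM in LGALS1 cells, were measured only through the cells with LGALS1 of 0. The count of 9 of 13 includes them and is a description.

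Depth moved with this group as well. In cells with LGALS1 of 0, FOS was at 2708 CPM under 4000 UMIs and 58.4 CPM at 14000 UMIs and over, and in LGALS1 cells it was at 1243 and 120.2 CPM in those bins. FOS was lower in LGALS1 cells in 5 of 6 bins and 2.06-fold higher (1.63 to 2.63) in the deepest, while ZFP36 and ATF3 were lower in 6 of 6. At matched depth 5 of 12 measured members were still lower (ATF3, FOS, FOSB, KLF4 and ZFP36), where 2.09% of all measured genes were. The median log2 ratio was -0.39. FOS was then 1.75-fold lower, and JUN, at a log2 ratio of -0.39, was within 1.5-fold. GADD45B, a stress-response gene, was at a log2 ratio of -1.16, and of -0.24 at matched depth. KLF10, a factor induced by TGF-beta, was at -0.73 and -0.25, and NFKBIA, the inhibitor of NF-kappaB, at -0.64 and -0.26. After thinning each cell to 4000 UMIs the median of the immediate early list was -1.12, with FOS at -1.58 and JUN at -1.12. GADD45B, KLF10 and NFKBIA were then at -1.04, -0.71 and -0.60. The size of these differences thus depended on how depth was handled.

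Genes of the differentiating and cornified layers were lower in LGALS1 cells, but their RNA sat in few cells. Of 7 measured members of the cornified and granular list 4 were lower, where 1.89% of all measured genes were, and 0 higher. The median log2 ratio of the list was -1.15, with -2.05 at matched depth and -1.21 after thinning. SPINK5, a protease inhibitor of the outer layers, was at 133.5 CPM in LGALS1 cells and 390.0 CPM in cells with LGALS1 of 0, 2.92-fold lower (2.75 to 3.11). KRT36 was at 46.5 and 181.6 CPM in the same order, KRTDAP, a peptide of differentiating keratinocytes, at 25.5 and 108.6 CPM, and A2ML1, a protease inhibitor of the granular layer, at 6.85 and 63.4 CPM. TGM1, which cross-links the cornified envelope, was lower as well, at 4.72 and 10.4 CPM. A2ML1 and TGM1 were under the 10 CPM minimum in LGALS1 cells, so they were measured only through the cells with LGALS1 of 0. The count of 4 of 7 includes them and is a description. A SPINK5 UMI was found in 6.29% of LGALS1 cells and 8.78% of cells with LGALS1 of 0, and a KRT36 UMI in 4.60% and 6.14%. Among cells with LGALS1 of 0, the 5% of cells with most of the gene held 98.7% of the SPINK5 UMIs and 99.2% of the KRT36 UMIs. These ratios thus rest on a small set of cells and not on the typical cell of either group.

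Other genes were lower to differing degrees across depth. AKR1D1, a steroid reductase, was at 24.7 CPM in LGALS1 cells and 62.0 CPM in cells with LGALS1 of 0 and lower in 6 of 6 depth bins. SAMD9, an interferon-inducible gene, was at 41.7 and 83.5 CPM in the same order, and lower in 6 of 6 bins too. LYPD2, a Ly6-family surface protein, was at 237.1 CPM in LGALS1 cells and 422.3 CPM in cells with LGALS1 of 0, and BHLHE40, a transcriptional repressor, at 29.6 and 56.6 CPM. Both were lower in all 6 bins. GSTM3, a glutathione transferase, was at 51.3 CPM in LGALS1 cells and 91.1 CPM in cells with LGALS1 of 0. Before thinning a LYPD2 UMI was found in 51.2% of LGALS1 cells and 42.2% of cells with LGALS1 of 0. For GSTM3 the shares were 29.4% and 20.4%. Among cells with LGALS1 of 0, the 5% with most of the gene held 69.8% of LYPD2, 72.1% of GSTM3 and 86.6% of AKR1D1 UMIs. The ratios of these genes thus rest largely on few cells. The matrix genes CCDC80 and DCN were lower when all cells were summed, at 109.2 CPM and 15.1 CPM in LGALS1 cells and 214.8 CPM and 28.4 CPM in cells with LGALS1 of 0. With the comparison cells weighted to matched depth the log2 ratios were 0.16 for CCDC80 and 0.08 for DCN, but after thinning each cell to 4000 UMIs they were -0.81 and -0.68, so the direction depended on how depth was handled.

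Most other gene lists stayed close to the median of all genes when cells were summed. Of 38 lists, 36 had at least 3 measured genes, and the immediate early and cornified lists were the only ones of these with a median beyond 1.5-fold. Among growth-factor lists, TGF-beta and activin signalling had 2 of 5 measured genes higher, where 1.68% of all measured genes were, and 0 lower. Its median log2 ratio was 0.43, with 0.64 at matched depth, 0.17 after thinning and -0.09 as the lowest of its alternatives. The genes that were higher were SMAD4 and ID3. SMAD4, the shared SMAD partner, was at 12.7 CPM in LGALS1 cells and 7.95 CPM in cells with LGALS1 of 0. ID3, a SMAD-responsive inhibitor of differentiation factors, was at 19.4 and 9.88 CPM in the same order. SMAD4 and ID3 were under the 10 CPM minimum in cells with LGALS1 of 0, so they were measured only through the LGALS1 cells. The count of 2 of 5 is therefore a description and no support for a change of the list. IGFBP6, which binds insulin-like growth factors, was at 133.3 CPM in LGALS1 cells and 89.6 CPM in cells with LGALS1 of 0, 1.49-fold higher (1.36 to 1.62) and just under the limit. No receptor for the PTHLH product was among the 3 measured genes of its list, and the others were GNAS, a general G protein subunit, at a log2 ratio of 0.07 and PCSK7, a processing protease, at 0.05.

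Motility, mesenchymal and cytoskeletal lists passed 1.5-fold in few genes. The wound-edge list had 2 of 11 higher (SERPINE2 and MMP9), where 1.68% of all measured genes were, and 0 lower. MMP9 was under the 10 CPM minimum in cells with LGALS1 of 0. In this list 9 of 11 genes were above 0, with a median log2 ratio of 0.17, against 0.05 over all genes. KRT17 was at 1184 CPM in LGALS1 cells and 1199 CPM in cells with LGALS1 of 0. Of 22 genes of mesenchymal transition, 2 were measured, S100A4 and TPM1, with TPM1 at a log2 ratio of 0.16. With 2 genes measured, this list cannot show whether it changed as a group. The actin list had 1 of 22 higher, where 1.68% of all measured genes were. This was CAPG, a protein that caps actin filaments, at 37.1 CPM in LGALS1 cells and 21.3 CPM in cells with LGALS1 of 0. Of 3 measured galectins other than LGALS1, 0 were higher and 0 lower, where 1.68% and 1.89% of all measured genes were. LGALS3 was at a log2 ratio of 0.21, LGALS4 at 0.28 and LGALS8 at -0.02.

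Basal-layer and junction genes were near the median of all genes. The basal and hemidesmosome list had 0 of 9 higher and 0 lower, with a median log2 ratio of -0.02, ITGB4 at -0.10 and TP63 at -0.04. Over all measured genes 1.68% were higher and 1.89% lower, so a count of 0 here or in the desmosome list says little. The desmosome list had 0 of 11 in either direction, with DSC2, a desmosomal cadherin, lowest at -0.58, and at matched depth DSC2 was lower at -1.01. The spinous list moved with depth. Of 6 measured genes 1 was lower (KRTDAP), where 1.89% of all measured genes were, with a median log2 ratio of -0.20. At matched depth 4 of 7 were lower (DSC2, KRT10, KRTDAP and LYPD3), where 2.09% of all measured genes were, with a median of -0.96. After thinning to 4000 UMIs the spinous median was -0.11. Of the 2 measured connexins, GJB2 was lower, at 6.59 CPM in LGALS1 cells and 15.4 CPM in cells with LGALS1 of 0. It reached the minimum for a measured gene only through the cells with LGALS1 of 0.

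Butyrate and oxidative phosphorylation genes varied little, and fatty acid genes differed in a few members. The 11 measured genes of butyrate oxidation and ketogenesis had 0 higher and 0 lower and a median log2 ratio of 0.04. Over all measured genes 1.68% were higher and 1.89% lower, so a count of 0 in a short list says little. In the fatty acid list 2 of 8 genes were higher (FABP4 and ACOT7), where 1.68% of all measured genes were, and at matched depth 0. The constitutive proteasome had 0 of 25 past 1.5-fold, but 25 of 25 were above 0, with a median log2 ratio of 0.23 and 0.19 at matched depth, against 0.05 and 0.06 over all genes. Nuclear-encoded oxidative phosphorylation had 31 of 33 above 0 with a median of 0.15, and 0.03 at matched depth. Mitochondrially encoded genes had a median of -0.11. Oxidative stress defence had a median of 0.23 with 0 of 17 higher, and 0.08 at matched depth.

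Inflammatory genes and S-phase genes differed in a few members each. The inflammatory list had 4 of 8 lower (S100A9, S100A12, NFKBIA and NFKBIZ), where 1.89% of all measured genes were, and 0 higher. Its median log2 ratio was -0.56, and -0.36 at matched depth, where the lower members were S100A8, S100A9 and S100A12. An S100A9 UMI was found in 13.4% of LGALS1 cells and 8.44% of cells with LGALS1 of 0. Among cells with LGALS1 of 0, the 5% with most of the gene held 92.3% of the S100A9 and 86.7% of the S100A12 UMIs. S100A12, also on the neutrophil marker list, was at 54.2 CPM in LGALS1 cells and 86.0 CPM in cells with LGALS1 of 0. The S-phase list had 2 of 15 higher, where 1.68% of all measured genes were. RRM2, which makes deoxynucleotides, was at 21.5 CPM in LGALS1 cells and 11.6 CPM in cells with LGALS1 of 0. CLSPN, a replication checkpoint protein, was at 26.1 and 16.8 CPM in the same order. The G2 and M list had 0 of 4 higher and 0 lower, where 1.68% and 1.89% of all measured genes were.

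**Figure D5:**
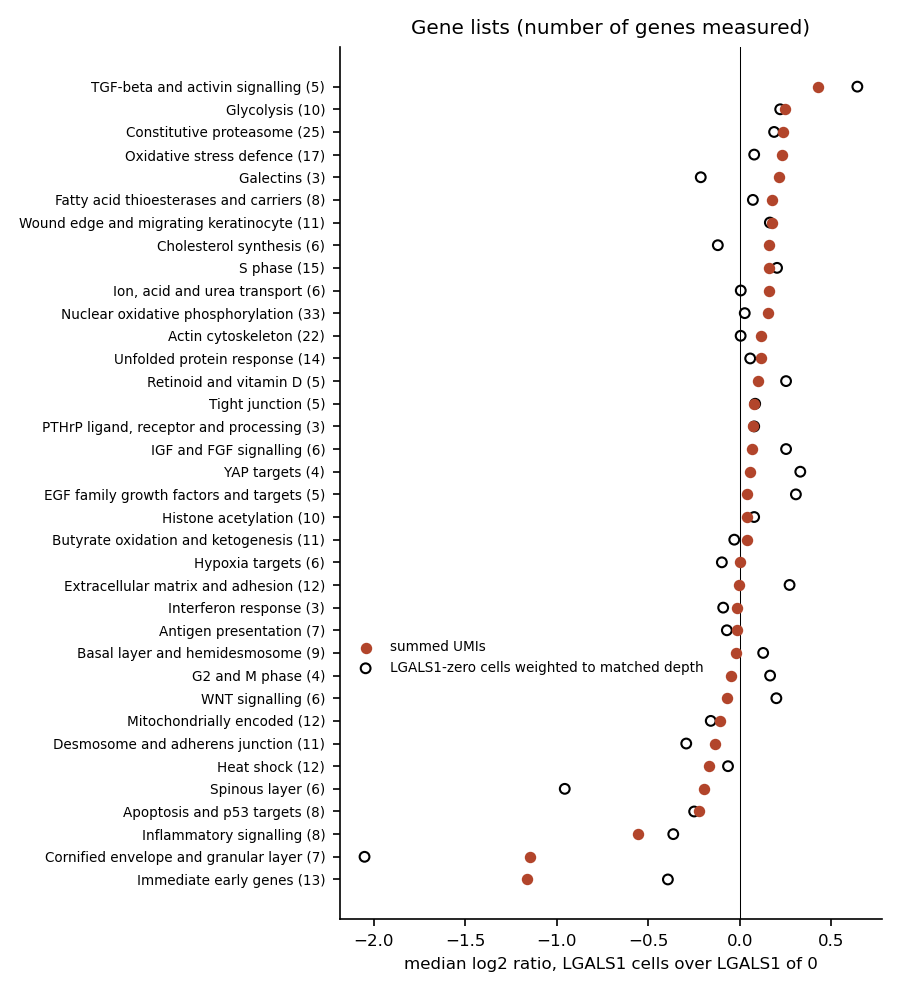
Median log2 ratio of LGALS1 cells over cells with LGALS1 of 0 (x axis) for each gene list with at least 3 measured genes (y axis, number measured in parentheses), from summed UMIs (filled) and with the comparison cells weighted to matched depth (open). Most lists lie near 0; immediate early genes lie at -1.16 and move to -0.39 at matched depth, and the cornified list lies at -1.15 and moves to -2.05.

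The LGALS1 cells were not uniform. After thinning to 4000 UMIs, 921 of them had a FABP4 UMI and 115 had none. Those with FABP4 had GJA1 in 40.2% and those without in 2.61%, and THEM5 in 59.3% and 29.6%. Those without FABP4 more often had CCDC80 (66.1%, against 13.8% of those with FABP4), FOS (53.04% against 15.4%), ZFP36 (40.0% against 10.7%), IGFBP6 (54.8% against 32.9%) and DCN (18.3% against 3.58%). PTHLH was found in 24.4% of those with FABP4 and 28.7% of those without, and ESD in 58.0% and 58.3%. S100A4 was found in 28.6% of those with FABP4 and 15.7% of those without. Before thinning the medians were 9973 UMIs with FABP4 and 6727 UMIs without, and the part of depth in these contrasts was not tested. S100A4 and MT2A were often found in the same cells, with S100A4 in 40.4% of the 203 thinned LGALS1 cells with MT2A and 23.9% of the 833 without. PTHLH was found in 27.8% of those with S100A4 and 23.8% of those without.

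The 27 LGALS1 cells of the milk-only library, which the choice of cells did not use, gave a partial match. They held 358925 UMIs, with a median of 11405 UMIs, against 11970 UMIs in the 1983 milk-only cells with LGALS1 of 0. S100A4 was at 97.5 CPM in these LGALS1 cells and 58.1 CPM in cells with LGALS1 of 0, a ratio of 1.68 (1.16 to 2.34). MT2A had a ratio of 1.84 (1.49 to 2.25) and ESD of 1.22 (1.01 to 1.45), which is under the 1.5-fold limit. PTHLH rested on 2 UMIs, with a ratio of 1.73 (0.206 to 6.43), and could not be placed. KRTDAP and SPINK5 were lower, with ratios of 0.148 (0.0787 to 0.253) and 0.309 (0.240 to 0.392). With concentrate the RNA of both genes sat in few cells. The intervals do not cover how many such cells fall among 27.

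Several genes had other ratios in the milk-only cells than with concentrate. FABP4 was at 72.4 CPM in LGALS1 cells and 1715 CPM in cells with LGALS1 of 0 of the milk-only library, a ratio of 0.0422 (0.0276 to 0.0619). FOS and ZFP36 were not lower, with ratios of 1.06 (0.974 to 1.154) and 1.16 (1.08 to 1.24). DCN had a ratio of 3.87 (3.38 to 4.41) and CCDC80 of 2.87 (2.55 to 3.22). IGFBP6 was higher in LGALS1 cells here too, with a ratio of 2.75 (2.42 to 3.10). VIM was at 27.9 CPM in those 27 cells and 0.926 CPM in the milk-only cells with LGALS1 of 0. The part of stromal RNA in these values was not tested. The difference between the libraries was not tested either, since each is 1 library.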

How the data were processed

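Droplet single-cell RNA was measured in 3 libraries of Hu sheep rumen epithelium, 1 per diet, grouped by sample title. The deposited matrices list unnormalized UMI counts for each gene in each barcode, per the file headers. Cell Ranger is given as version 3.1 in the submitters' processing notes and 5.0.0 in the file headers. The genome build, annotation and selection of barcodes were not stated in the labels or headers, and no coordinates or sequences are printed. Libraries held 60220174 (concentrate), 63057979 (milk only) and 56861548 (hay) UMIs.

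From these counts, UMIs were summed over cells and scaled to CPM. Intervals of 95% were exact Poisson for levels, conditional binomial for ratios and Clopper-Pearson for shares, with a limit of 3 counts for a share of 0. Genes used by the gate were left out. No doublet caller was used. Cells above the 95th percentile of UMIs were left out in an alternative. Computation used pandas 2.3.3, scipy 1.17.1 and numpy 2.4.6 in Python 3.11.15, and was tested on simulated counts. Genes named are the 12 highest and 12 lowest ratios (8 genes qualified as highest) with a symbol carried by 1 identifier, at least 50 CPM in the higher group, at least 1.5-fold with an interval that excludes 1 and a UMI in at least 10% of cells of that group, leaving out ribosomal, mitochondrially encoded and gate genes, plus the proposed markers and up to 4 genes per list with the largest ratios. Others are said to be chosen after their values were seen, or are given as list members or for comparison of cell types. The members, lists and rules were chosen with earlier results of these data known. Alternatives changed the LGALS1, gene, mitochondrial, KRT15 and cycle limits, depth, scaling, low-value filter and stromal RNA.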

Additional observations from a re-analysis of the deposited data

How the results depend on the processing

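No paired analysis was possible because each diet is 1 library and the labels give no replicate numbers. In 9 results for single genes and 2 for lists, of 161 genes and 38 lists recomputed, an alternative turned the direction. At matched depth the log2 ratios of CCDC80 and DCN were 0.16 and 0.077. Cutting LGALS1 after thinning gave -0.029 for CLSPN, -0.044 for MMP9 and -0.47 for RRM2. Thinning and leaving out the top 5% of cells of each gene, an alternative chosen after seeing the data, gave 0.026 for GSTM3, 0.50 for S100A9 and a median of 1.33 for the cornified list. A KRT15 minimum of 10 gave 0.54 for TGM1, and a mitochondrial maximum of 10% gave 0.055 for TIMP2 and 0.084 for the connexins.

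Counts of genes moved with the limits, and the cause was not tested. Against 73 higher genes, there were 123 with at least 5 LGALS1 UMIs, 30 with a comparison of 0 to 2 UMIs, 237 with a mitochondrial maximum of 10%, 137 after thinning, 186 when LGALS1 was cut after thinning, 121 without the 50 most abundant genes, 615 at a 1 CPM minimum, 13 at 50 CPM, and 183 after thinning without the top 5% of cells. Against 82 lower genes, there were 227, 127, 233, 212, 671 and 28 under the mitochondrial, thinning, cut-after-thinning, 50-gene, 1 CPM and 50 CPM alternatives. Against 31.1%, the share of LGALS1 cells was 45.5% and 15.04% at limits of 2 and 5 UMIs, 36.1% with at least 1000 genes, 35.0% with under 10% mitochondrial UMIs and 12.3% when cut after thinning. S100A4, MT2A and ESD kept their direction and 1.5-fold in 19 of 19 alternatives, and PTHLH its direction in 19 and 1.5-fold in 18. PTHLH fell under 1.5-fold, to a log2 ratio of 0.49, when LGALS1 was cut after thinning. FABP4, PSPH and SRI were also under 1.5-fold there, at 0.43, 0.47 and 0.46, and GALK1 was past it at 0.65. Genes near the 10 CPM minimum rest on few UMIs, and counting intervals do not cover differences between animals.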

Other observations

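Cycling keratinocytes of the concentrate library, which the gate leaves out, also carried LGALS1. The 1033 such cells had LGALS1 at 323.7 CPM, PTHLH at 104.4 CPM, S100A4 at 79.1 CPM and IGFBP6 at 108.6 CPM, and 83.5% had an LGALS1 UMI at a median depth of 11210 UMIs. In the milk-only library 521 cycling keratinocytes had LGALS1 at 17.7 CPM, and in the hay library 1280 had it at 2.15 CPM. Cells of the KRT36 set in the concentrate library had PTHLH at 8.87 CPM.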
